A study of Arabidopsis thaliana with 16 samples.

Results

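The calcium sensor and kinase genes of Arabidopsis thaliana were taken as the nuclear protein-coding genes whose symbol in the gene table is CIPK, CBL, CPK, CAM or CML followed by digits. They numbered 76 of 27432 genes, with 21 CIPK, 9 CBL, 29 CPK, 9 CAM and 8 CML genes. Occupancy of ENAP1, a nuclear protein that interacts with the ethylene signalling protein EIN2, had been mapped by chromatin immunoprecipitation followed by sequencing (ChIP-seq). Wild-type Col-0 seedlings and seedlings of the ethylene-insensitive mutant ein2 were raised in darkness for 3 days at 24 C and then held for 4 hours in hydrocarbon-free air or in the same air with 10 ppm ethylene. The 16 samples comprise, for each of these 4 conditions, 2 ChIP samples precipitated through green fluorescent protein and 2 inputs. Whole seedlings were used, so cell types are not told apart, and the labels name neither the tagged transgene and its promoter nor the ein2 allele. ChIP from untagged plants is not among the samples, so signal that the antibody gives by itself cannot be told apart from ENAP1.

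Each condition has 1 deposited peak set for its replicates. Replicate spread and depth are therefore unknown, and the conditions are described side by side with no test between them. Col-0 held 7852 regions in air and 5137 in ethylene, and ein2 held 3252 and 4696. The lowest −log10 q values kept were 13.4, 10.8, 10.9 and 6.57 in the same order, which is the order of every list of 4 values that follows. A gene was counted as having a region where a peak overlapped its span with 1000 bp on each side. Fold is the authors' enrichment of ChIP over the local background at the summit, and folds are ranked here only among the regions of the same set.

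Calcium ions act as a second messenger in plant cells, and the 5 families read or relay their level. Calmodulins (CAM) and calmodulin-like proteins (CML) are small EF-hand proteins that bind calcium and then act on other proteins. Calcineurin B-like proteins (CBL) are EF-hand sensors that recruit the CBL-interacting protein kinases (CIPK) to membranes, where the pairs regulate ion transport. Calcium-dependent protein kinases (CPK) carry the sensor and the kinase in a single chain. These proteins are best known for responses to salt, potassium supply, drought, touch and pathogens.

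Of the 76 genes, 37 had an ENAP1 region in Col-0 under air and 16 under ethylene, and in ein2 the numbers were 14 and 18. The shares were 48.7% (Wilson 95% interval 37.8 to 59.7), 21.1% (13.4 to 31.5), 18.4% (11.3 to 28.6) and 23.7% (15.5 to 34.4). Over all genes, 35.5%, 26.2%, 16.9% and 22.4% had a region. Longer genes more often hold a region, so the share of all genes in each of 10 length classes was also weighted by the lengths of the members. That gave 39.1%, 28.4%, 18.8% and 24.8%, each inside the interval of the members' own share. In Col-0 air the interval lay above the share over all genes, and in the other 3 sets it held that share. The 76 genes as a whole thus stood within counting error of genes of their length in all 4 sets. With the 15 genes that carry such a name as a synonym added, the Col-0 air share was 49.5% (39.4 to 59.5) and the level for their lengths, 39.1%, lay just under the interval.

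The families are given apart. Of the CIPK genes, 13 of 21 had a region in Col-0 air, where their lengths gave 8.35, and 4, 3 and 5 had one in the other sets, where their lengths gave 6.10, 4.02 and 5.32. In Col-0 air that is 61.9% (40.9 to 79.2) beside 39.8%, the level for their lengths lying just under the interval. Most of the Col-0 air regions at CIPK genes were in the weaker part of that set: with the 3252 regions of lowest p taken from each set, 3 CIPK genes had one there. Over all genes the same cut took the Col-0 air share from 35.5% to 17.5%. The CBL genes counted 5, 2, 3 and 2 of 9, beside 3.46, 2.54, 1.66 and 2.18. The CPK genes lay below the level for their lengths in every set, at 10, 5, 3 and 4 of 29 beside 12.6, 8.97, 6.15 and 8.01. In Col-0 air that is 34.5% (19.9 to 52.7) beside 43.4%, and in every set the level lay inside the interval of the CPK share. The CAM genes counted 4, 2, 2 and 3 of 9, beside 3.30, 2.45, 1.58 and 2.09. The CML genes, the shortest family with a median of 995 bp, counted 5, 3, 3 and 4 of 8, beside 2.01, 1.53, 0.897 and 1.23. The symbol rule left out CML genes named by synonym, none of which had a region. With those added, the counts were 5, 3, 3 and 4 of 12, beside 3.23, 2.45, 1.47 and 1.99. In Col-0 air that is 41.7% (19.3 to 68.0), an interval that holds the level for their lengths, 26.9%. The excess among the 8 genes also rested on the flanks: with each region given to the gene that holds its summit or lies nearest to it, CML counts were 2, 1, 1 and 2. By that rule all members counted 30, 13, 10 and 14, or 39.5%, 17.1%, 13.2% and 18.4%, beside 24.5%, 17.3%, 11.2% and 15.2% over all genes. Unlike the levels above, these shares over all genes were not weighted by gene length. These differences between families were not tested.

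**Figure D1:**
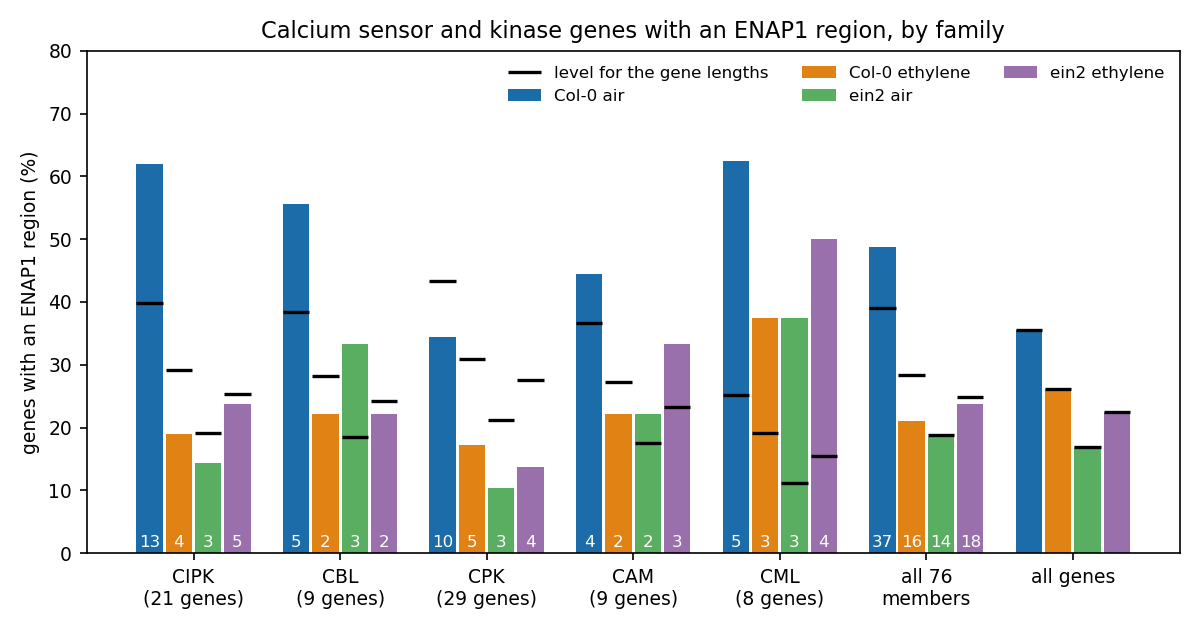
Share of genes with an ENAP1 region in each of the 4 peak sets (bars, percent), by family, for the 76 members and for all 27432 genes; white numbers are gene counts and black lines the level that the gene lengths give. The CIPK bar in Col-0 air stands well above its line (13 genes beside 8.35), and all 4 CPK bars stand below theirs.

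Over the 4 sets together, 37 members (48.7%) had at least 1 region, beside 39.7% of all genes. Every one of them had a region in Col-0 air, where 89.4% of all genes with a region in any set did. Of the 37 genes, 12 had a region in all 4 sets, namely CIPK4, CIPK5, CIPK7, CBL1, CBL3, CPK5, CPK30, CAM3, CAM5, CML37, CML42 and CML43. That is 15.8% of the members, beside 12.8% of all genes, and 32.4% of those with any region, beside 32.3%. A further 14 genes were found in Col-0 air alone, 18.4% of the members beside 6.98% of all genes, and 7 of these were CIPK genes. These patterns depend on what each set keeps. With the highest of the 4 lowest −log10 q values (13.4) applied to every set, 7 members had a region in all 4 sets and 21 in Col-0 air alone. With equal numbers of regions, 3252 per set, 8 members had a region in all 4 sets and 2 in Col-0 air alone, CPK9 and CPK23, with 0 CIPK genes. Then 19 members had any region, of which CIPK9, CPK1, CML38 and CBL9 had none in Col-0 air. Over all genes, the common minimum took the ein2 ethylene share from 22.4% to 10.4%, and equal numbers took that of Col-0 air from 35.5% to 17.5%. The patterns themselves were not counted over all genes under these settings. Whether they moved more for the members than for other genes was not tested. As deposited, CIPK9, CPK2, CPK23 and CPK25 had a region in both Col-0 sets and in neither ein2 set. CIPK18, CIPK21, CPK1, CAM4 and CML38 were found in Col-0 air and ein2 ethylene, CBL9 in both air sets, and CPK28 in every set but Col-0 ethylene. The remaining 39 genes had no region in any set, 51.3% of the members beside 60.3% of all genes. Of these, 19 were CPK, 8 CIPK, 5 CAM, 4 CBL and 3 CML genes.

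**Figure D2:**
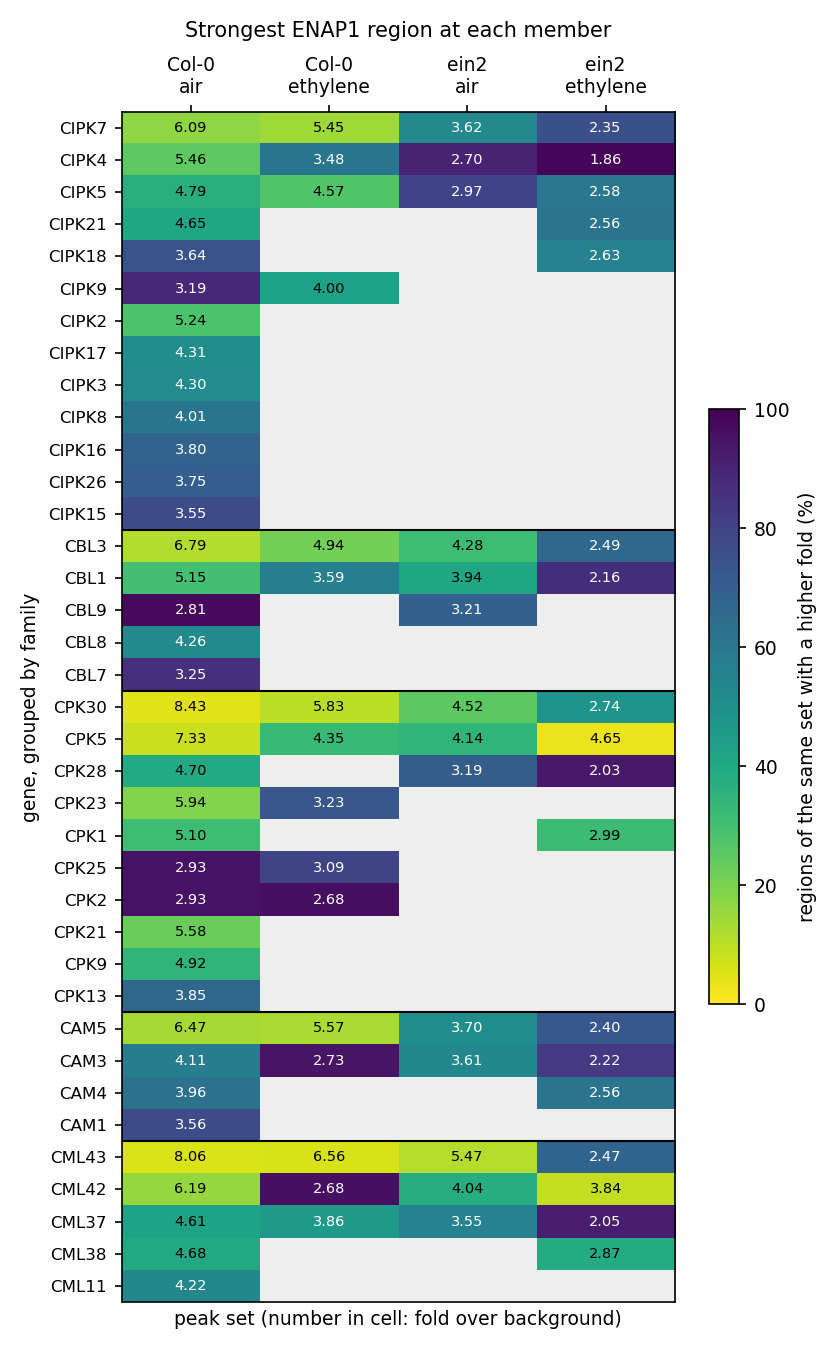
The strongest ENAP1 region at each of the 37 members with a region (rows, by family) in the 4 peak sets (columns). Cells give the fold over background, colour gives the percentage of regions of the same set with a higher fold (yellow is strongest), and grey means no region. The Col-0 air column is filled for all 37 genes, whereas 12 rows are filled in all 4 columns.

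Among the sensors of the CBL family, CBL3 had the strongest regions. CBL3, a sensor of the vacuolar membrane, had folds of 6.79 and 4.94 in Col-0 under air and ethylene, and of 4.28 and 2.49 in ein2. Within their own sets, 11.4%, 20.9%, 31.0% and 66.1% of the regions had a higher fold, so the region stood high in both Col-0 sets and in the lower part of ein2 ethylene. In Col-0 air it spanned 13410864 to 13411386 of chromosome 4 (TAIR10), with its summit 188 bp inside the gene. CBL1, a plasma membrane sensor, had folds of 5.15, 3.59, 3.94 and 2.16 in the same order, with 30.1%, 56.6%, 41.2% and 86.8% of regions higher. Its closest relative CBL9, which acts with it, had a region in the air sets, with folds of 2.81 in Col-0 and 3.21 in ein2. These were weak regions, since 97.5% and 69.4% of the regions of those sets had a higher fold.

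CBL8 had a region in Col-0 air alone, with a fold of 4.26 and its summit 113 bp outside the gene. CBL7 was also counted in Col-0 air alone, but the summit lay nearest to the neighbouring gene AT4G26555. CBL7 lies next to CBL3, with 295 bp between the genes, and they shared no region. CBL2, the vacuolar partner of CBL3, had no region in any set, nor did CBL5, CBL6 and CBL10, the last of which acts with the kinase SOS2 in shoots.

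Among the CIPK kinases, CIPK7 had the highest Col-0 air fold. Its folds were 6.09, 5.45, 3.62 and 2.35, with 16.8%, 14.2%, 53.0% and 75.6% of regions higher. The Col-0 air region spanned 8172462 to 8172782 of chromosome 3, with its summit 156 bp inside the gene. CIPK4, with folds of 5.46, 3.48, 2.70 and 1.86, stood in the upper part of the regions in Col-0 air (24.8% higher) and among the weakest of ein2 ethylene (98.1% higher). CIPK5 had folds of 4.79, 4.57, 2.97 and 2.58. Of the strongest regions of the members, those of CIPK5 had the summits farthest inside the gene, at 665 bp from the nearest edge in Col-0 air and 623 to 662 bp in the other sets.

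CIPK2 had the third highest Col-0 air fold of its family, 5.24, with 28.3% of regions higher, and no region in any other set. CIPK9, a kinase of potassium homeostasis, had folds of 3.19 in Col-0 air and 4.00 in Col-0 ethylene, with 88.5% and 42.1% of regions higher. It had no region in ein2. CIPK16 and CIPK17 each had 2 regions in Col-0 air and none elsewhere. The other CIPK genes found in Col-0 air alone had folds from 3.55 to 4.30. They were CIPK3, which acts in abscisic acid and cold responses, CIPK8, which acts in nitrate signalling, CIPK15, and CIPK26, which acts on the oxidase RBOHF. For CIPK3 the summit was 707 bp outside the gene and nearest to FUS12 (AT2G26990). CIPK18 was the single member found in several sets whose strongest regions did not overlap, since its Col-0 air summit lay 15 bp inside the gene and its ein2 ethylene summit 732 bp outside it. CIPK23, which phosphorylates the potassium channel AKT1, had no region, and neither did CIPK1, CIPK12, CIPK13, CIPK19, CIPK20, CIPK22 and CIPK25.

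Of the calcium-dependent kinases, CPK30 and CPK5 had a region in all 4 sets and the 2 highest folds of their family in Col-0 air. CPK30 had folds of 8.43, 5.83, 4.52 and 2.74, with 4.36%, 10.5%, 25.2% and 48.3% of regions higher. In Col-0 air the region spanned 28082422 to 28082730 of chromosome 1, and the 4 summits lay within 7 bp of each other, 112 to 119 bp inside the gene. CPK5, a kinase of immune signalling that acts on the oxidase RBOHD, had folds of 7.33, 4.35, 4.14 and 4.65. It stood highest in ein2 ethylene, where 3.11% of regions had a higher fold, beside 8.06%, 32.1% and 34.4% in the other sets.

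CPK23, which acts on the guard cell anion channel SLAC1, had folds of 5.94 in Col-0 air and 3.23 in Col-0 ethylene and no region in ein2. Its relative CPK21, in the same gene cluster on chromosome 4, had a region in Col-0 air alone, with a fold of 5.58. CPK22, CPK27 and CPK31 of that cluster had none. CPK2 and CPK25 were found in both Col-0 sets at the weak end, with 95.2% and 95.0% of Col-0 air regions higher. The CPK2 summit lay also inside the overlapping gene NUP1. CPK1, CPK9 and CPK13 had Col-0 air folds of 5.10, 4.92 and 3.85, and of these CPK1 also had a region in ein2 ethylene, with a fold of 2.99. At CPK28, a kinase that restrains immune signalling, all 3 summits lay nearest to the neighbour ARO2, so its regions may equally be counted to that gene.

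Among the calmodulin genes, CAM3 was the one with a region inside the gene in all 4 sets. Its folds were 4.11, 2.73, 3.61 and 2.22, with 58.2%, 94.7%, 53.6% and 83.5% of regions higher. The 4 summits lay within 8 bp of each other, 68 to 76 bp inside the gene. In Col-0 air the region spanned 21035902 to 21036289 of chromosome 3. At CAM5 the regions had higher folds, from 6.47 in Col-0 air to 2.40 in ein2 ethylene. Their summits lay 941 to 978 bp outside CAM5 and nearest to PAG1 (AT2G27020), a proteasome subunit gene.

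CAM4 had a region in Col-0 air (fold 3.96) and in ein2 ethylene (2.56), and CAM1 in Col-0 air alone (3.56). CAM2, CAM6, CAM7, CAM8 and CAM9 had none. Apart from CAM8 and CAM9, the calmodulin genes encode nearly identical proteins, but how alike their DNA is was not examined here. The treatment of reads that match several places is not stated in the labels. Whether a region at a given calmodulin gene holds reads of another was not tested.

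The calmodulin-like gene CML37, a gene induced by wounding and drought, had a region inside the gene in all 4 sets. Its folds were 4.61, 3.86, 3.55 and 2.05, with 41.8%, 46.4%, 55.8% and 92.1% of regions higher. CML38, a close relative that is induced by low oxygen, had folds of 4.68 in Col-0 air and 2.87 in ein2 ethylene. Its neighbour AT1G76640, also called CML39, had no region. CML43 had the highest fold of the family in Col-0 air, 8.06, and folds of 6.56, 5.47 and 2.47 in the other sets, but the summits lay 1048 to 1057 bp outside the gene and nearest to AT5G44450. At CML42, a gene known for its part in trichome branching, the folds were 6.19, 2.68, 4.04 and 3.84, and the summits lay 411 to 438 bp outside the gene and inside or nearest to AT4G20790. CML11 was counted from a Col-0 air region whose summit lay 1016 bp away. CML23, CML30 and CML41 had no region.

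Most members found in several sets had their summits in the same place. Of 23 members found in at least 2 sets, the strongest regions overlapped in 22, and the summits lay within 50 bp of each other in 21, with a median range of 29 bp. The exceptions were CIPK18, with 747 bp, and CPK23, with 225 bp. How often summits coincide between sets over all genes was not counted, so this may not be particular to the members. In Col-0 air the members had 42 regions. The summit lay inside the member for 28 of them (66.7%), where over all pairs of a region and a gene 47.9% did. It lay within 300 bp of an edge of the member for 61.9%, beside 60.0% over all pairs. The share inside the gene was also above that over all pairs in the other 3 sets, at 70.6%, 71.4% and 72.2% beside 48.0%, 52.2% and 47.5%. Since most strongest regions overlapped between sets, these sets are not independent of Col-0 air. None of these shares was weighted by gene length. The flank was 1000 bp for every gene, and the median length was 2728 bp for the members and 2078 bp over all genes. Whether the higher share inside the gene goes beyond what longer genes give was not tested. For 7 of the 37 members, namely CIPK3, CBL7, CPK28, CAM5, CML11, CML42 and CML43, every summit belonged to another gene or to none. In Col-0 air, 30 of the 37 members thus kept a region by the gene of the summit, beside 6732 of 9743 over all genes. The gene table gives no strand, so a summit near an edge may lie at either the start or the end.

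Few members lay close to the limit of the window. Of the members with a region in Col-0 air, those nearest to its limit were CML11, whose region began 943 bp from the gene, CML43 at 873 bp and CAM5 at 830 bp. The members nearest to it without a region were CAM6, at 1128 bp from a Col-0 air region, and CPK18, at 1134 bp from an ein2 ethylene region. Of the 39 members with no region, 10 lay within 2000 bp of a Col-0 air region, and the median distance was 4428 bp.

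**Figure D3:**
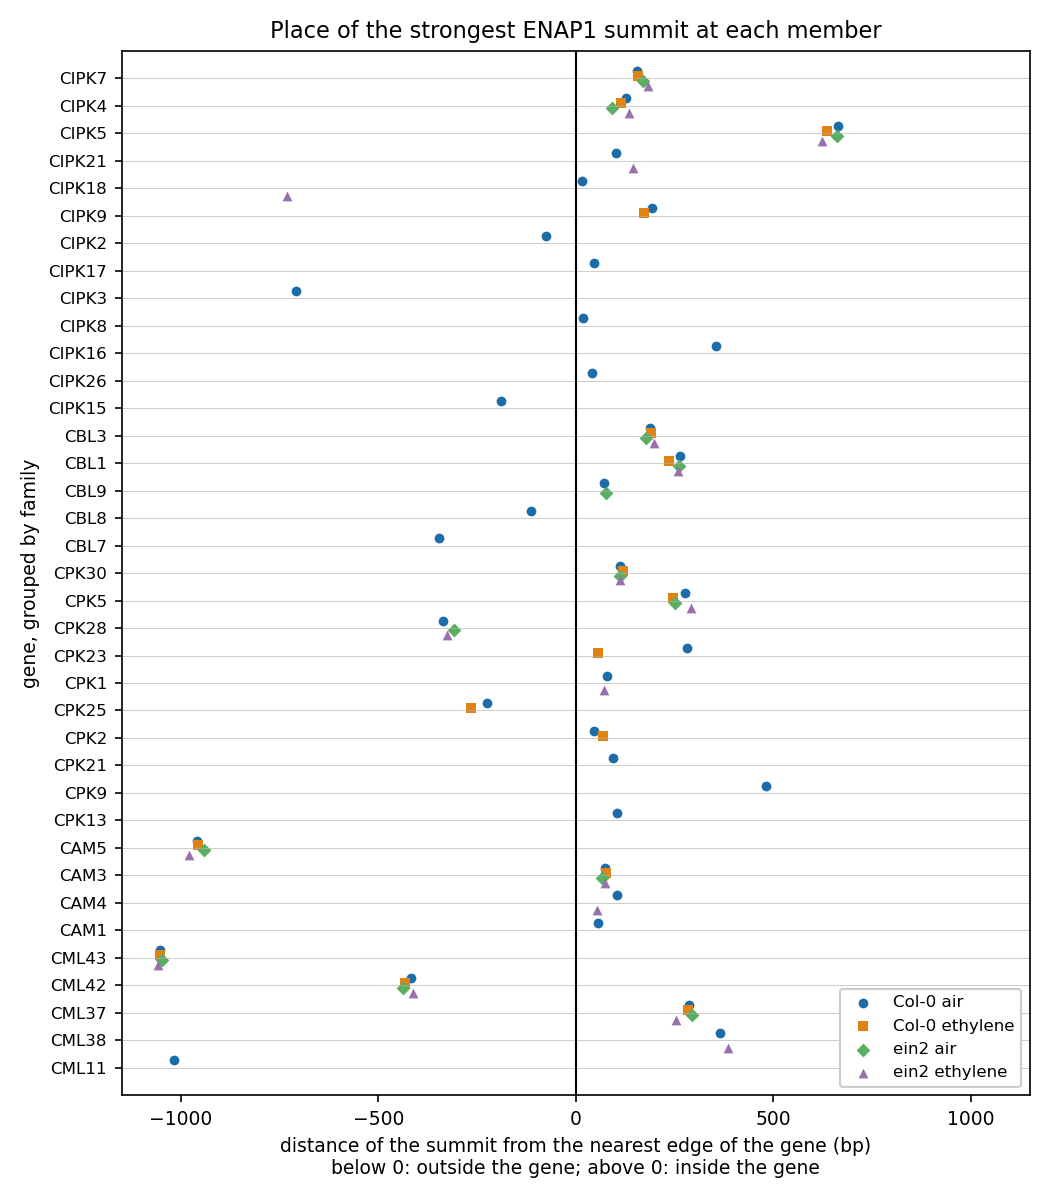
Distance in bp of the strongest summit from the nearest edge of the gene, for the 37 members with a region (rows, by family); values above 0 lie inside the gene, symbols and colours mark the 4 peak sets. Most symbols of a gene fall together, and CIPK18 is the gene with the widest split.

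In Col-0, the comparison of gases asks which members ENAP1 occupies after 4 hours of the hormone. Of the 37 members found in air, 16 were found in ethylene, 43.2% (Wilson 95% interval 28.7 to 59.1), beside 66.7% over all genes. All 16 members found in ethylene were also found in air, beside 90.4% over all genes. By family, 4 of 13 CIPK, 2 of 5 CBL, 5 of 10 CPK, 2 of 4 CAM and 3 of 5 CML genes were found again. Among 27 MAP kinase cascade genes and 29 WRKY genes found in Col-0 air, 63.0% and 62.1% were found again.

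The 16 members found in both conditions had a median Col-0 air fold of 5.70, and the 21 found in air alone 4.22. Over all genes, too, the share found again was larger for strong regions, at 47.1% to 55.2% in the 5 lower of 10 classes of Col-0 air fold and 96.4% in the highest. Weighting by these classes gave 24.6 members where 16 were found, and 7.89 CIPK genes where 4 were found. The count of 16 thus stood below what genes of the same Col-0 air fold gave, a difference that was not tested. Members with a fold up to 5.58 in air, at CPK21, had no region in ethylene, while CPK2 and CPK25, both at 2.93, had one.

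The share of members found again was also below that of all genes with a common threshold and with equal numbers of regions. With the common −log10 q minimum, 35.1% of the members and 58.4% of all genes with a Col-0 air region had a Col-0 ethylene region. With 3252 regions from each set, the shares were 66.7% (10 of 15 members) and 80.5%. All 3 CIPK genes then found in air were also found in ethylene, so the low CIPK share did not hold there, and 2 of 5 CPK genes were. Air and ethylene ChIP libraries carry different styles of number in the names of the peak sets, so any difference in handling and the effect of ethylene cannot be told apart.

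**Figure D4:**
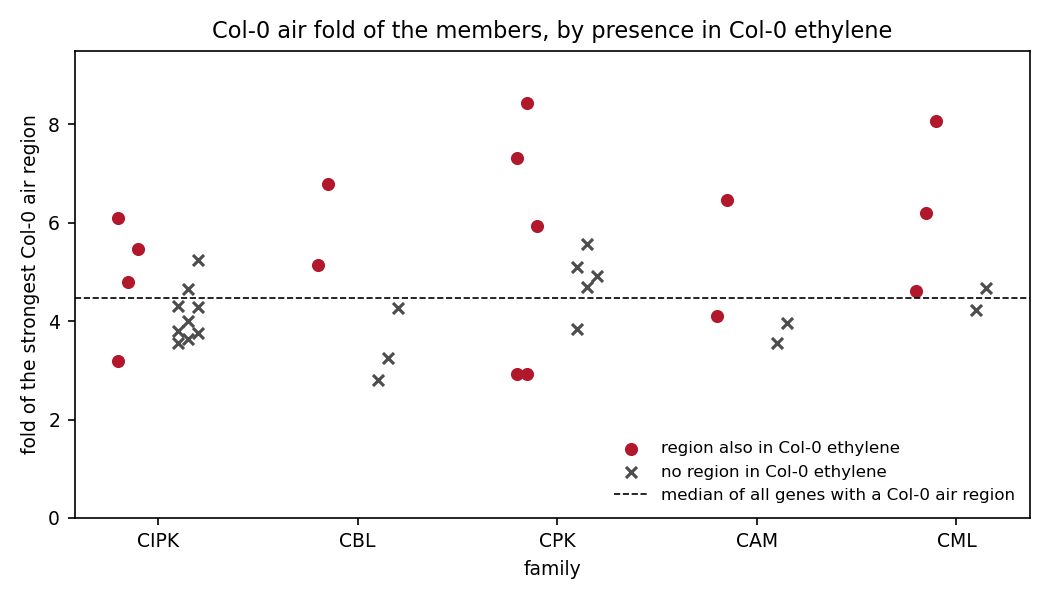
Fold of the strongest Col-0 air region of each of the 37 members (vertical axis), by family; red dots also had a region in Col-0 ethylene, grey crosses did not, and the dashed line is the median of all genes with a Col-0 air region, 4.48. Red dots lie higher in general (median 5.70 beside 4.22), and those of CIPK9, CPK2, CPK25 and CAM3 lie below the dashed line.

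The same comparison in ein2 asks about the gas in the ethylene-insensitive mutant. Of the 14 members found in air, 13 were found in ethylene, 92.9% (68.5 to 98.7) beside 84.9% over all genes. The exception was CBL9. With the common −log10 q minimum the members' share was close to that of all genes, at 57.1% (8 of 14) beside 59.4%. It was also close with equal numbers of regions, at 71.4% (10 of 14) beside 73.7%. In the other direction, 13 of the 18 members found in ethylene were found in air, 72.2% (49.1 to 87.5) beside 63.9%. The 5 members that ein2 had in ethylene and lacked in air were CIPK18, CIPK21, CPK1, CAM4 and CML38. Their −log10 q values in ein2 ethylene were 7.19, 6.77, 11.4, 6.77 and 9.36, so that 4 of them lie below the lowest value kept in ein2 air. With the common −log10 q minimum of 13.4 none of the 5 had a region in ein2 ethylene.

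Col-0 and ein2 were set side by side in air to ask which members ENAP1 occupies in the mutant without added ethylene. Of the 37 members found in Col-0, 14 were found in ein2, 37.8% (24.1 to 53.9) beside 46.9% over all genes. All 14 members of ein2 were found in Col-0, beside 98.8% over all genes. The CIPK genes had 3 of 13 and the CPK genes 3 of 10, while the CBL and CML genes each had 3 of 5. Weighting by Col-0 air fold gave 17.4 members and 4.97 CIPK genes, beside the 14 and 3 found. With equal numbers of regions the order against all genes turned, with 13 of 15 members (86.7%) beside 79.8%, and 3 of 3 CIPK genes. In ethylene, 12 of the 16 members of Col-0 had a region in ein2, 75.0% (50.5 to 89.8) beside 62.5%, and 12 of the 18 members of ein2 had one in Col-0, 66.7% (43.7 to 83.7) beside 73.1%. At the common −log10 q minimum the last pair was 87.5% beside 84.9%. The 4 found in Col-0 alone were CIPK9, CPK2, CPK23 and CPK25, so 3 of 5 CPK genes with a region in Col-0 ethylene had none in ein2 ethylene. That was 1 of 3 CPK genes with the common −log10 q minimum and 0 of 2 with equal numbers of regions.

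A further 15 genes carry a CIPK, CBL, CPK or CML name as a synonym in the gene table, and so were no members. Among them was the gene with the highest fold of these families in Col-0 air, CDPK1 (AT1G18890), also called CPK10, a kinase of drought responses. Its folds were 10.6, 6.43, 6.74 and 4.15, with 1.26%, 6.77%, 4.09% and 6.26% of regions higher. It thus stood among the strongest regions of all 4 sets. In Col-0 air it spanned 6525639 to 6526046 of chromosome 1, with its summit 198 bp inside the gene.

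SIP4 (AT2G30360), also called CIPK11, had 3 regions in Col-0 air and 3 in Col-0 ethylene, and 2 in each ein2 set. A region inside the gene had a fold of 7.87 in Col-0 ethylene, with 1.79% of regions higher, and of 5.18 in Col-0 air, with 29.4% higher. In ein2 it was weaker in rank, with folds of 3.69 and 2.07 and 50.8% and 91.1% of regions higher. SR1 (AT5G01820), also called CIPK14, had a region inside the gene in all sets but ein2 ethylene, and shared a further Col-0 air region with its neighbour CIPK15. CDPK6 (AT4G23650), also called CPK3, had a region in both Col-0 sets, and CDPK19 (CPK8) in Col-0 air and ein2 ethylene. SIP3 (CIPK6) had a region in Col-0 air. SIP1 (CIPK10) had one in ein2 air alone, with a fold of 4.31. Of the 15 genes, 8, 5, 5 and 5 had a region in the 4 sets, beside 5.89, 4.31, 2.82 and 3.73 from their lengths. Of the 8 in Col-0 air, 5 were found again in Col-0 ethylene, a share near the 66.7% over all genes.

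None of 3 known pathway groups had a region at every gene. In the salt tolerance pathway, the kinase gene SOS2 (CIPK24) had a region in all 4 sets, with folds of 5.85, 5.32, 5.51 and 2.02. Its summits lay 92 to 123 bp inside the gene. The sensor gene SOS3 (CBL4) had a region in Col-0 air (fold 6.38) and in ein2 ethylene (2.80), and the sodium antiporter gene SOS1 had none. Of the genes for potassium uptake, CBL1 had a region in all 4 sets and CBL9 in the air sets. CIPK23 had none, and AKT1, listed as KT1, had one in Col-0 ethylene alone with a fold of 3.31. Of the touch-induced genes, CAM1, which the table also calls TCH1, had one in Col-0 air, and TCH2 and TCH3 had none.

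Other calcium and pathway genes were listed by symbol or synonym, unlike the members, and their regions were counted in the same way. Of 119 such genes, 47, 26, 20 and 34 had a region, beside 51.3, 36.8, 24.7 and 32.9 from their lengths. Of the 3 genes listed as CAMTA, calmodulin-binding transcription activators, 3, 1, 1 and 2 had a region, beside 1.37, 1.01, 0.651 and 0.887 from their lengths. The search by name may not have caught the whole CAMTA family. Of 20 cyclic nucleotide-gated channel genes 7, 4, 3 and 8 had a region, beside 8.88, 6.20, 4.29 and 5.71 from their lengths. Of 20 glutamate receptor-like channel genes 4, 3, 3 and 4 had one, beside 8.96, 6.25, 4.32 and 5.81. Among the 11 calcium pump genes listed as ACA, ECA1 included, 6, 3, 2 and 3 had one, beside 4.98, 3.62, 2.38 and 3.22. Among the 33 IQD genes, which encode calmodulin-binding scaffold proteins, the counts were 12, 6, 3 and 6, beside 13.3, 9.71, 6.43 and 8.41 from their lengths. Of 12 further genes listed as targets, 6, 4, 3 and 5 had a region, beside 5.25, 3.87, 2.5 and 3.38 from their lengths. Among them, RBOHF, an oxidase gene, had a region in all 4 sets, with a Col-0 air fold of 8.96. RBOHD had one in Col-0 air and ein2 ethylene, with folds of 4.03 and 2.24. No set had a region at SOS1, SLAC1, SLAH3, HAK5 or NHX1.

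The MAP kinase cascade genes, another family of signalling kinases, had regions more often than their lengths gave. Of 42 genes, 27, 18, 14 and 18 had a region, beside 16.2, 11.8, 7.68 and 10.3 from their lengths. For 67 WRKY transcription factor genes the counts were 29, 18, 15 and 20, beside 24.9, 18.4, 11.9 and 15.8. The difference between these families and the calcium genes was not tested.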

How the data were processed

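The submitters' processing notes name BWA, MACS2 2.1.0.20150603 and the build TAIR10. Which BWA version, filters and threshold were applied, and how replicates entered a peak set, is not stated in these sources. The deposited files give each peak's start, end and summit offset in bp, its fold enrichment, a ratio computed by the authors, and −log10 p and −log10 q values as the authors' caller wrote them. They hold no read counts, so depth is unknown. No sample label names 2 of the 6 peak files, whose 20 columns were left aside.

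Gene spans and symbols were taken from RefSeq (assembly TAIR10.1), and its coordinates are not printed. As a check, 71.3% to 75.6% of summits lay within 300 bp of a gene edge, and 25.1% to 26.7% after a shift of 2000 bp. A gene had a region where at least 1 bp of a peak lay in its span with 1000 bp on each side. The search was tested on simulated data. Shares were weighted over 10 classes of gene length, and, added after seeing the data, 10 classes of fold. Wilson 95% intervals cover counting error only and treat genes as independent. The members, lists and comparisons were chosen with earlier results of these data known. Every CBL and CAM gene was to be named. In the other families, values were to be given for genes found in all 4 sets, the 3 of highest Col-0 air fold, genes found elsewhere than Col-0 air, and the salt, potassium and touch groups. Further genes with a region were named by their pattern, and their values, CPK21 and CDPK1 among them, were chosen after being seen. Genes without a region were to be counted, and those named were chosen afterwards. Promoter motifs and protein features were planned and not run, since no sequences were used here. Python 3.11.15, pandas 2.3.3, SciPy 1.17.1 and matplotlib 3.10.9 were used.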

Additional observations from a re-analysis of the deposited data

How the results depend on the processing

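Counts in families of 8 or 9 genes are small, and those of 1 or 2 genes can move by over 1.5 times with 1 gene. With the highest lowest −log10 q (13.4) applied to every set, ein2 ethylene held 8 members in place of 18. Over all genes its share likewise went from 22.4% to 10.4%. The 8 members were 2 CIPK, 1 CBL, 2 CPK, 1 CAM and 2 CML genes. Col-0 ethylene held 3 CPK genes, and over all genes its share went from 26.2% to 22.2%. Then 8 members had a region in both ein2 sets, 6 in ein2 air and not ein2 ethylene and 0 the other way. In ethylene, 7 members were in both lines and 1 in ein2 and not Col-0. With 3252 regions from each set, Col-0 air held 15 members, with 3 CIPK, 2 CBL, 5 CPK, 2 CAM and 3 CML genes. Over all genes its share likewise went from 35.5% to 17.5%. With 3 of 21 CIPK genes beside that 17.5%, the CIPK excess in Col-0 air was no longer there. Col-0 ethylene then held 2 CPK and 1 CAM genes, and ein2 ethylene 2 CIPK genes. Members in both Col-0 sets were 10, in Col-0 air and not ethylene 5, and the other way 1. In ein2 air and not ein2 ethylene they were 4, and the other way 2. In Col-0 air and not ein2 air they were 2, and the other way 1.

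Without flanks, the CML counts were 3, 1, 1 and 2 in the order of the report, and CAM had 1 gene in Col-0 ethylene and 1 in ein2 air. With each region given to the gene of its summit, CML had 2, 1, 1 and 2 genes, and CAM 1 and 1 in the same sets. With synonyms included, CIPK had 7 genes in Col-0 ethylene and 7 in ein2 air. An overlap of at least 100 bp left all 24 counts within 1.5 times. Part of each change follows from fewer regions, narrower windows or more members. No paired analysis was possible because each condition has 1 peak set for both replicates, and no replicate could be left out for the same reason.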
